A study of Mus musculus with 7 samples.

Results

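The genes described are 7 subunits of the GABA-A receptor, 3 of the α class (*Gabra2*, *Gabra3* and *Gabra4*), 2 of the β class (*Gabrb1* and *Gabrb2*) and 2 of the γ class (*Gabrg1* and *Gabrg3*). They were chosen by gene symbol from the 33696 genes of the count matrix of cultured BB-p53n OPCs, and all 7 were found in it. BB-p53n OPCs are primary oligodendrocyte progenitor cells (OPCs) of *Trp53*fl/fl C57BL/6 mouse pups of either sex at postnatal day 5 to 7, isolated with an antibody against PDGFRα. They were transduced with a PDGFB-IRES-CRE retrovirus, so that *Trp53* was deleted and PDGFB was overexpressed in the same cells. Their nuclei were sequenced as 1 library, and OPCs without the deletion or the retrovirus were not analysed here, nor were the brains with early-stage and late-stage tumors, so there is no control group and no replicate. Of 10047 barcodes, the 8917 nuclei with 2000 to 8000 detected genes were used, and 1 sample gives no test between groups.

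GABA-A receptors are chloride channels opened by the transmitter GABA and built from subunits around a central pore. The common receptors hold α, β and γ subunits, GABA binds between α and β, and benzodiazepines bind between α and γ. OPCs carry such receptors and receive GABAergic contacts from neurons, and the subunits present set the affinity, kinetics and drug response of the channel. A nucleus holds unspliced and spliced transcripts, so the counts report which subunit genes were transcribed and not which receptors were assembled.

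The labelled cell type was checked against its markers. The 7 OPC markers reported (*Pdgfra*, *Cspg4*, *Olig1*, *Olig2*, *Ptprz1*, *Lhfpl3* and *Vcan*) summed to 5281 CPM (UMIs of a gene in 1000000 UMIs of all genes), from 1802 to 7506 CPM between clusters. The 7 neuronal markers summed to 124 CPM (36.2 to 265 CPM between clusters), of which *Syt1* gave 109 CPM, *Snap25* 8.24, *Rbfox3* 4.04 and *Gad1* 2.32 CPM. *Slc17a7*, *Gad2* and *Slc17a6* were at 0.0992, 0.0921 and 0.00709 CPM. The sums were 15.3 CPM for 5 astrocytic, 0.914 CPM for 4 oligodendrocytic, 6.99 CPM for 3 microglial and 2.15 CPM for 2 endothelial or mural markers, with at most 20.9 CPM in any cluster. The kept nuclei held 141138093 unique molecular identifiers (UMIs, each standing for 1 captured transcript), with a median of 13771 per nucleus.

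Of the 7 genes, 4 lie in 1 block of mouse chromosome 5 (build GRCm39), in the order *Gabrg1* (70906506 to 70999960, minus strand), *Gabra2* (71114573 to 71253662, minus strand), *Gabra4* (71721738 to 71815722, minus strand) and *Gabrb1* (71815456 to 72319431, plus strand). *Gabra4* and *Gabrb1* point away from each other and overlap by 267 bases at their starts, and in RefSeq their first bases overlap by 388 bases on GRCm38.p6. *Gabrg3* is on chromosome 7 (56366213 to 57036936, minus strand), *Gabrb2* on chromosome 11 (42310493 to 42523417, plus strand) and *Gabra3* on chromosome X (71476275 to 71700723, minus strand). The starts of the pair on chromosome 5 and of both γ genes are shown, because the results below turn on these 2 contrasts. The windows are the 250 bases before a start in the RefSeq promoter table, placed on GRCm39 by exact match and cut to the longest stretch with no annotated UTR, and the capitals mark GGGCGG on either strand.
Gabra4: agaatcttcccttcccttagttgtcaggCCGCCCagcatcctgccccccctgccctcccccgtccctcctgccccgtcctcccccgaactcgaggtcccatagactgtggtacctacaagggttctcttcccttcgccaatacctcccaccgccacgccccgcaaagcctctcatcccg
Gabrb1: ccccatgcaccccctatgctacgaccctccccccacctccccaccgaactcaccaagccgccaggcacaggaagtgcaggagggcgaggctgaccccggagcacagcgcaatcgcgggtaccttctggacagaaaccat
Gabrg1: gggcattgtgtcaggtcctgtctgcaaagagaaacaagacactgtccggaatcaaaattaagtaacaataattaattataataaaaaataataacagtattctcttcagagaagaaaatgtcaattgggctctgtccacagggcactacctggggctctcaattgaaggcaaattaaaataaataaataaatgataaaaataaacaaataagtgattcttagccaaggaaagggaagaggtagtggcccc
Gabrg3: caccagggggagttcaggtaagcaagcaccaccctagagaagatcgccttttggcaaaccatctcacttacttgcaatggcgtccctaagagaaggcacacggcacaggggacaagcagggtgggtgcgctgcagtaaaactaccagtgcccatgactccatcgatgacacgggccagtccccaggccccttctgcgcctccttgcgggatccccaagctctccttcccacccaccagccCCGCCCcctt

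The *Gabra4* stretch (chr5:71815723-71815901, minus strand) has 179 bases and lies in an intron of *Gabrb1*. The *Gabrb1* stretch (chr5:71815014-71815152, plus strand) has 139 bases and lies inside *Gabra4*, of which it holds 86 coding bases. The second start of *Gabrb1* is not shown, since its whole 250-base window is annotated as UTR. The *Gabrg1* stretch (chr5:70999961-71000210, minus strand) overlaps no annotated gene, and the *Gabrg3* stretch (chr7:57036964-57037213, minus strand) overlaps the non-coding gene *Gm9962*. The *Gabrg1* window is poor in C and G, with 35.6% of bases and 1 CpG dinucleotide, and the *Gabrg3* window has 60.4% and 9. Over all 32851 promoters of the RefSeq table, the medians in windows of this length were 52.4% and 6. The motif GGGCGG, searched with CCGCCC on the other strand, was found in the 250-base windows of *Gabra2*, *Gabra4*, *Gabrg3* and 1 start of *Gabrb2*, and in 32.7% of all promoters. TATAAA was found before *Gabrb2* at base -30 and, on the other strand, before both starts of *Gabra3* (12.4% of all promoters), and CAGATG before none of the 7 genes (14.4%). A match describes these letters only.

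The 7 genes are given first in CPM, which is not corrected for length and is not used to order them. Summed over the kept nuclei, *Gabrg3* had 7937 UMIs and *Gabrg1* 6266 UMIs, which is 56.2 CPM (95% exact Poisson interval 55.0 to 57.5) and 44.4 CPM (43.3 to 45.5). Their proteins, γ3 and γ1, take the γ position of the receptor. Among the α genes *Gabra3* had 12.9 CPM (12.3 to 13.5), *Gabra2* 9.39 CPM (8.89 to 9.91) and *Gabra4* 4.37 CPM (4.03 to 4.73). The β genes *Gabrb2* and *Gabrb1* had 8.11 CPM (7.65 to 8.60) and 2.76 CPM (2.50 to 3.05). By UMIs, the 7 genes stood between place 3871 and place 11881 of all genes. All intervals given cover counting error only, since nuclei of 1 culture are not replicates.

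The order of the genes was read per length, because introns are counted in nuclei and *Gabrg3* spans 671 kb while *Gabrg1* spans 93.5 kb. Per 10 kb of gene span, *Gabrg1* was highest with 4.75 CPM, which is 5.67 times (5.48 to 5.86) the 0.838 CPM of *Gabrg3*. The α genes followed closely on each other with 0.675 CPM per 10 kb for *Gabra2*, 0.574 for *Gabra3* and 0.465 for *Gabra4*. *Gabrb2* had 0.381 CPM per 10 kb and *Gabrb1* 0.0548, so that *Gabrb1* was at 0.144 times (0.128 to 0.162) the level of *Gabrb2* on this scale. The counting intervals of neighbors in this order did not overlap. Per kb of merged exons the order changed, with *Gabrg3* at 4.71 CPM and *Gabrg1* at 4.37, then *Gabra3* at 1.87, *Gabra2* at 1.05, *Gabrb2* at 0.739, *Gabra4* at 0.434 and *Gabrb1* at 0.164. On either scale the γ genes were above the α genes and *Gabrb1* was last, while *Gabrb2* was below *Gabra4* per gene span and above it per kb of exons.

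**Figure D1:**
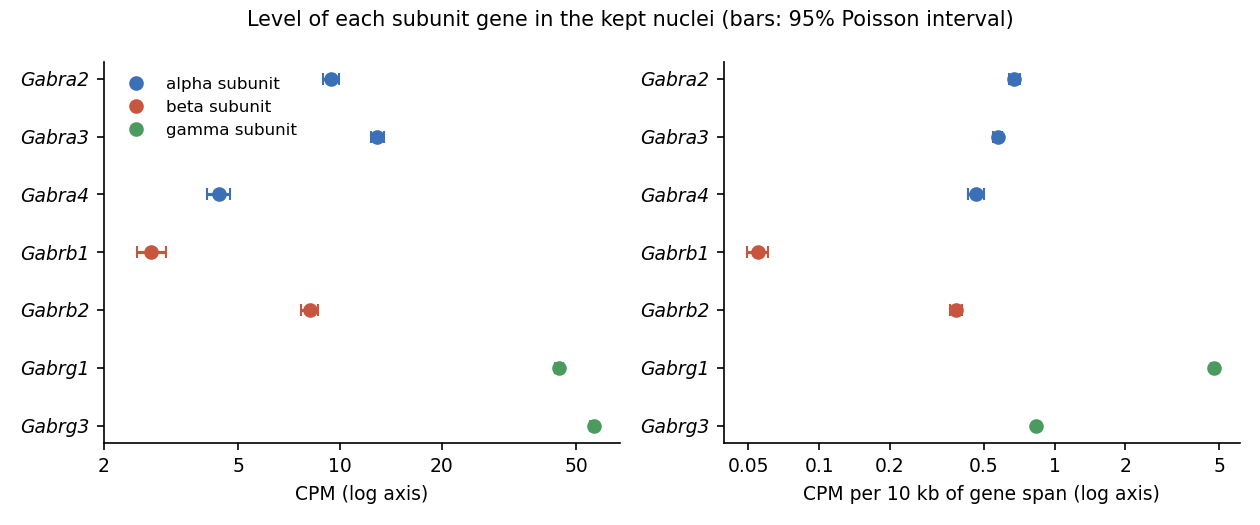
Level of the 7 subunit genes in 8917 nuclei, as CPM (left) and as CPM per 10 kb of gene span (right), both on log axes, with points for the level and bars for the 95% Poisson interval. *Gabrg3* leads in CPM with 56.2, while *Gabrg1* leads per 10 kb with 4.75.

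As raw make-up of the 19498 UMIs of the 7 genes, 72.8% (95% exact binomial interval 72.2 to 73.5) came from γ, 19.3% (18.7 to 19.8) from α and 7.87% (7.50 to 8.26) from β genes. These shares count only the 7 genes and are not corrected for length. Of the other members of the family reported, *Gabrr2*, a ρ subunit, had 197 UMIs or 1.40 CPM, *Gabra5* had 65 UMIs and *Gabre* 44. *Gabrr1* had 10 UMIs, *Gabrp* 3 and *Gabra6* 1. *Gabrq* and *Gabrr3* were at 0 of 141138093 UMIs, with a 95% exact Poisson interval up to 0.0261 CPM. Per 10 kb of gene span *Gabrr2* had 0.421 CPM, above both β genes on that scale, and *Gabre* had 0.166 CPM.

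Within single nuclei the 7 genes were sparse. After each nucleus was thinned at random to 5000 UMIs, which left out 157 shallower nuclei, *Gabrg1* had a UMI in 18.7% (95% exact binomial interval 17.9 to 19.6) of 8760 nuclei and *Gabrg3* in 14.8% (14.1 to 15.6). *Gabra3* had a UMI in 5.79% of them, *Gabra2* in 4.59%, *Gabrb2* in 3.93%, *Gabra4* in 2.26% and *Gabrb1* in 1.46%. Without thinning the shares were 42.7% for *Gabrg1*, 28.6% for *Gabrg3* and 14.0% for *Gabra3*. None of the 7 genes had a UMI in 58.2% of thinned nuclei, 1 in 33.2%, 2 in 7.56%, 3 in 0.993% and 4 in 6 nuclei.

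*Gabrg3* and *Gabrg1* differed in how their UMIs were spread over nuclei. Although more nuclei had a UMI of *Gabrg1*, *Gabrg3* had 3 or more UMIs in 208 thinned nuclei against 38 for *Gabrg1*, and 53 UMIs in the nucleus with the most before thinning. In thinned nuclei the variance over the mean was 2.85 for *Gabrg3* and 1.15 for *Gabrg1*, with means of 0.259 and 0.222 UMIs per nucleus. The other 5 genes were at 1.09 to 1.30, with means of 0.0166 to 0.0638. This measure nears 1 at low means, so these 5 genes are not compared with *Gabrg3* by it. Before thinning, the 892 nuclei with the most *Gabrg3* UMIs held 71.7% of them, while the 892 with the most *Gabrg1* UMIs held 43.4%. For the other 5 genes, which fewer nuclei had, this share was higher, at 80.4% to 100%.

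A nucleus with UMIs of all 3 classes was rare at this depth. In 31.2% of thinned nuclei a γ gene was detected, in 12.1% an α gene and in 5.29% a β gene. UMIs of an α, a β and a γ gene together were found in 30 of 8760 nuclei, or 0.342% (0.231 to 0.489), and in 3.42% (3.05 to 3.82) without thinning. The product of the 3 shares is 0.200%. Of the 30 nuclei, 16 were in 1 cluster, numbered 4, in which they were 1.33% (0.765 to 2.16) of nuclei. The most frequent sets were *Gabra2* with *Gabrb2* and *Gabrg3*, and *Gabra4* with *Gabrb2* and *Gabrg3*, each in 6 nuclei, then *Gabra3* with *Gabrb2* and *Gabrg3*, and *Gabra4* with *Gabrb1* and *Gabrg1*, each in 5. At this depth the absence of a subunit in a nucleus was not detectable.

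To see which subunits were found together, the number of nuclei with both genes of a pair was divided by the number that the product of their shares gives. Over the 21 pairs this ratio had a median of 1.26 and ran from 0.737 to 4.49. It was highest for *Gabra4* with *Gabrb1*, the overlapping neighbors on chromosome 5, with 13 nuclei against an expected 2.89, a ratio of 4.49 (2.39 to 7.68). The 6 pairs within the chromosome 5 block were all above 1, with a median of 1.69, and the 15 pairs on different chromosomes had a median of 0.979. The interval lay above 1 for 4 of the former and 3 of the latter. Among the former, *Gabra2* with *Gabra4* was at 1.98 (1.17 to 3.13) and *Gabra2* with *Gabrg1* at 1.38 (1.13 to 1.67). Among the latter, *Gabrb2* with *Gabrg3* was at 1.51 (1.19 to 1.89). Both γ genes were found together less often than the product gives, in 211 nuclei, with a ratio of 0.866 (0.753 to 0.992).

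Within clusters the ratios moved in both directions. With the product taken in each cluster and summed, the median was 1.17, 15 pairs were above 1 in place of 13, and only *Gabra4* with *Gabrb1* kept an interval above 1, at 2.91 (1.55 to 4.98). The other pairs of the chromosome 5 block then ran from 0.935 (*Gabra4* with *Gabrg1*) to 1.31 (*Gabrb1* with *Gabrg1*). *Gabra2* with *Gabra3* went from 0.860 to 1.44 (0.881 to 2.23). *Gabrg1* with *Gabrg3* was then at 0.962 (0.836 to 1.10), and *Gabrb2* with *Gabrg3* at 1.22 (0.960 to 1.52). As Pearson correlations over the 8760 nuclei, which share 1 library and 1 depth, no pair exceeded 0.0709, the value of *Gabra4* with *Gabrb1*.

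**Figure D2:**
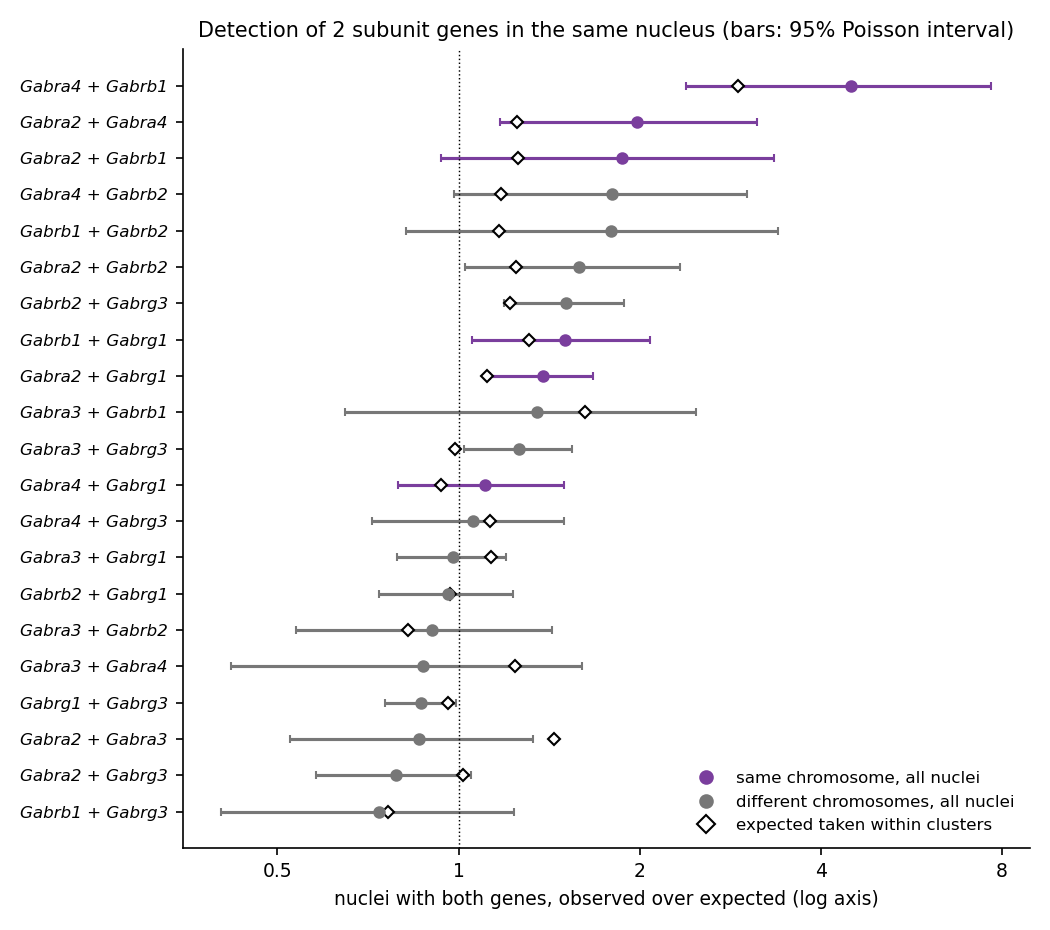
Nuclei with a UMI of both genes, observed over expected, for the 21 pairs (log axis), with bars for the 95% Poisson interval of the filled points and open diamonds for the product taken within clusters. *Gabra4* with *Gabrb1* is highest by both, at 4.49 and 2.91.

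The subunits differed widely between clusters of nuclei. The nuclei were clustered on other genes, with 11 variable genes that were GABA-A subunit genes or *Brinp3* taken out, so the levels below did not shape the clusters. This gave 8 clusters, numbered 0 to 7 by size, with 1737, 1733, 1391, 1337, 1219, 826, 494 and 180 nuclei, which carry no cell type name. Over the 6 clusters of at least 500 nuclei, the highest level was at least 2 times the lowest for all 6 of the genes with at least 500 UMIs in the library, against 36.0% of all 11424 genes with as many UMIs. The median ratio of the highest to the lowest cluster was 14.3 for these 6 genes and 1.70 over all 11424. *Gabrb1*, with 390 UMIs, was not counted.

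*Gabra3*, whose subunit is common in brainstem and in early development, was concentrated in cluster 0. Its level was 38.5 CPM (36.1 to 41.1) in cluster 0, 1.17 CPM (0.767 to 1.72) in cluster 1, 8.0 in cluster 2, 8.24 in cluster 3, 4.02 in cluster 4, 11.9 in cluster 5, 8.57 in cluster 6 and 27.5 CPM (20.9 to 35.6) in the small cluster 7. Cluster 0 thus held 52.6% of all *Gabra3* UMIs with 19.5% of the nuclei. The highest level was 32.8 times (22.3 to 50.5) the lowest. The lowest value was from 26 UMIs, and without the 8% of nuclei with the highest doublet scores of Scrublet it was 0.343 CPM and the ratio 115. A *Gabra3* UMI was found in 17.4% of thinned nuclei of cluster 0 and in 0.176% of those of cluster 1.

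*Gabra2* and *Gabra4* ran the other way. *Gabra2*, an α subunit of the forebrain, had 21.7 CPM (19.5 to 24.2) in cluster 4 and 21.6 CPM (19.7 to 23.7) in cluster 1, then 9.31 in cluster 5, 5.96 in cluster 0, 4.97 in cluster 6, 2.33 in cluster 3, 2.31 in cluster 2 and 0 of 2106673 UMIs in cluster 7. *Gabra4*, which forms extrasynaptic receptors in several regions, had 10.2 CPM (8.71 to 11.98) in cluster 4, 9.03 CPM (7.82 to 10.4) in cluster 1, 4.86 in cluster 5, 3.54 in cluster 0 and at most 1.89 CPM in the other 4. Across the 8 clusters the levels of these 2 genes had a Pearson correlation of 0.99, and *Gabra2* with *Gabra3* had -0.50. As a result the leading α gene changed with the cluster. *Gabra3* made up 80.2% of the α UMIs in cluster 0, 70.8% in cluster 2 and 72.5% in cluster 3, while *Gabra2* made up 67.9% in cluster 1 and 60.4% in cluster 4. All 58 α UMIs of cluster 7 were *Gabra3*.

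Of the β genes, *Gabrb2*, a subunit of the most common receptor of the adult brain, was highest in cluster 4, with 31.3 CPM (28.6 to 34.3) against 11.1 CPM (9.84 to 12.5) in cluster 0, 9.02 in cluster 7, 7.89 in cluster 6, 6.30 in cluster 5, 2.69 in cluster 2, 2.63 in cluster 3 and 1.99 CPM (1.44 to 2.67) in cluster 1. *Gabrb1* had 7.26 CPM (5.98 to 8.74) in cluster 4, 5.19 CPM (4.29 to 6.23) in cluster 1, 2.62 in cluster 0 and 0.475 to 2.40 CPM in the other 5. So *Gabrb1* followed *Gabra2* of the same block and not only its overlapping neighbor *Gabra4*. Across the 8 clusters its Pearson correlation was 0.94 with *Gabra4*, 0.94 with *Gabra2* and 0.68 with *Gabrg1*. Spearman's was 0.93, 0.90 and 0.95 in the same order. With *Gabrb2*, on chromosome 11, *Gabrb1* had 0.69 by Pearson and 0.26 by Spearman, so by Pearson the link was not particular to the block. Both β genes were highest in cluster 4. In cluster 4 the β genes made up 20.1% (18.7 to 21.6) of the UMIs of the 7 genes, and in clusters 2 and 3 they made up 3.17% and 3.32%.

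By UMIs, which are not corrected for length, the leading γ gene differed between clusters. Which gene leads depends on the length scale, while the ratio of 1 gene between clusters does not. *Gabrg3* had 89.5 CPM (85.8 to 93.3) in cluster 0, 59.8 to 70.7 CPM in clusters 2 to 5, 16.6 in cluster 6, 5.22 in cluster 7 and 3.70 CPM (2.94 to 4.59) in cluster 1, a ratio of 24.2 (19.4 to 30.5) between clusters 0 and 1. Its level in cluster 1 was 1.86 CPM (1.32 to 2.56) once the top 8% of nuclei by Scrublet score were removed, and 11.8 CPM (7.99 to 16.9) in the 189 nuclei of that cluster with a mitochondrial share of 5% or less, where cluster 0 was at 91.6 and 104 CPM. *Gabrg1* was highest where *Gabrg3* was lowest, with 75.3 CPM (71.7 to 79.0) in cluster 1 against 28.2 to 46.4 CPM in clusters 0 and 2 to 6 and 4.27 CPM (1.95 to 8.11) in cluster 7. *Gabrg1* gave 95.3% (94.2 to 96.3) of the γ UMIs of cluster 1 and 31.9% to 42.2% of those of clusters 0 and 2 to 5. It also led in cluster 6, with 69.7% (64.3 to 74.7). By UMIs the γ genes led in every cluster but cluster 7, where 58 of 98 UMIs came from *Gabra3*.

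**Figure D3:**
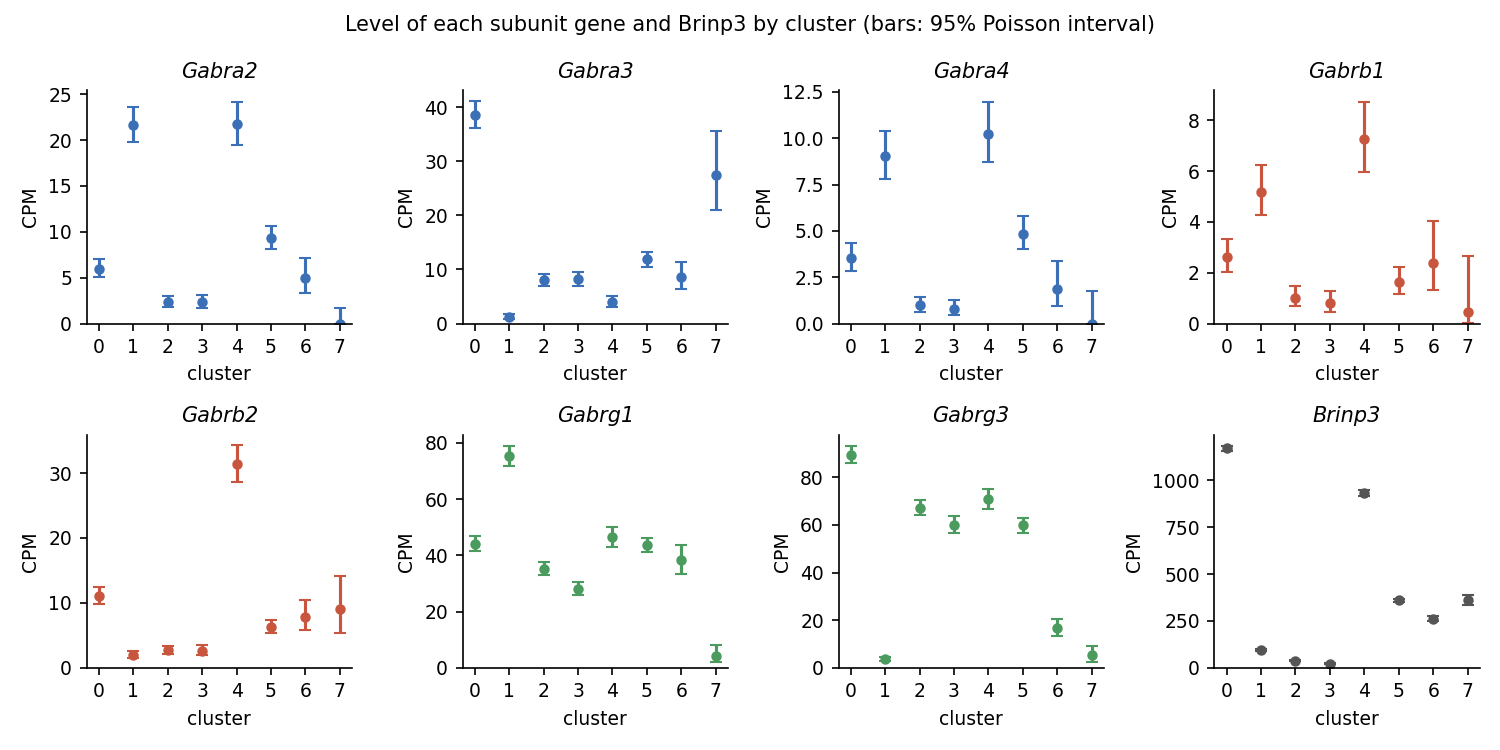
Level in CPM (each axis from 0, with its own range) of the 7 subunit genes and *Brinp3* in clusters 0 to 7, with bars for the 95% Poisson interval. *Gabra2*, *Gabra4* and *Gabrb1* are highest in clusters 1 and 4, *Gabra3* in clusters 0 and 7, and *Gabrg3* is at 3.70 CPM in cluster 1.

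Free RNA and doublets can both put UMIs into nuclei that do not transcribe a gene, and cluster 1 allows a gauge of both together. Of its nuclei, 90.9% had *Xist*, the transcript of the inactive X, and no UMI of 4 Y-linked genes. The Y-linked genes were at 6.997 CPM in cluster 1, at a median of 11623 UMIs per nucleus, and at 315 CPM in cluster 4, at a median of 10247 UMIs. The level in cluster 1 was 0.0960 times the level in all kept nuclei for the Y-linked genes, 0.0911 times for *Gabra3* and 0.0658 times for *Gabrg3*. Over all kept nuclei these 2 subunit genes were therefore at or below this background in cluster 1 and are not read as expressed there. *Gabrb2* was at 0.245 times, and the 4 genes of chromosome 5 at 1.70 to 2.30 times. By another gauge, 1783 nuclei with at least 5 *Xist* UMIs, the Y-linked genes were at 0.275 times. *Gabrb2* in cluster 1 lies below that value and cannot be told from background by it. Without the top 8% of nuclei by Scrublet score, cluster 1 went from 1733 to 1673 nuclei. Its *Gabra3* UMIs went from 26 to 7 and its *Gabrg3* UMIs from 82 to 38. How much of the background came from doublets was not tested. Among nuclei with a mitochondrial share of 5% or less, *Gabrg3* was at 11.8 CPM in cluster 1 and 79.2 CPM in all. No gauge was taken in those nuclei.

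The sex-linked transcripts moved with the clusters, and with them the subunits. In nuclei with *Xist* and no Y-linked UMI, of which 1575 of 1934 were in cluster 1, *Gabra3* was at 3.996 CPM (3.28 to 4.82), and in nuclei with a Y-linked UMI and no *Xist* at 17.5 CPM (16.2 to 18.9). *Gabra2* was at 18.8 CPM (17.2 to 20.5) in the former and 12.1 CPM (11.0 to 13.3) in the latter, *Gabrg1* at 68.5 and 42.5 CPM, and *Gabrg3* at 12.5 and 70.1 CPM. The largest class, 4410 nuclei with a median of 14736 UMIs, lacked sex-linked transcripts of either kind. In it *Gabra2* was at 3.61 CPM (3.18 to 4.08) and *Gabrg1* at 34.5 CPM, below both classes above. *Gabra3* was at 14.4 CPM there and *Gabrg3* at 67.1 CPM. Within cluster 0 *Gabra3*, an X-linked gene, was at 32.0 CPM (19.3 to 49.9) in 39 nuclei with *Xist* and at 40.4 CPM (36.6 to 44.4) in 719 nuclei with Y-linked UMIs. In 1 library from pups of either sex, the sex of the donor and the state of a cluster cannot be told apart where a cluster is nearly all of 1 kind.

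*Brinp3* encodes a protein of the BMP and retinoic acid inducible neural family and is the gene against which *Gabra3* was set. It had 58120 UMIs, or 412 CPM, and a UMI in 47.9% of thinned nuclei. In thinned nuclei *Gabra3* had 3.13 UMIs per 100 nuclei (2.64 to 3.69) where *Brinp3* had none (4565 nuclei). It had 7.71 (6.67 to 8.88) where *Brinp3* had 1 to 4 UMIs (2515 nuclei), 11.8 (10.0 to 13.8) at 5 to 9 UMIs (1295 nuclei), 17.3 (13.3 to 22.1) at 10 to 19 UMIs (365 nuclei) and 30 (11.0 to 65.3) at 20 or more UMIs, which only 20 nuclei had. Nuclei with at least 5 *Brinp3* UMIs had 4.22 times (3.403 to 5.24) the *Gabra3* level of nuclei with none, and 2.83 times (1.71 to 4.89) among nuclei with a mitochondrial share of 5% or less. Over 8760 nuclei the Pearson correlation was 0.150 and Spearman's was 0.147.

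The relation was smaller once clusters were taken into account. Of the 1680 nuclei with at least 5 *Brinp3* UMIs, 56.0% were in cluster 0 and 31.5% in cluster 4. In cluster 0 *Gabra3* had 21.2 UMIs per 100 nuclei with at least 5 *Brinp3* UMIs and 18.8 per 100 nuclei with none. In cluster 4, where *Brinp3* was at 934 CPM against 1172 CPM in cluster 0, it had 1.89 and 0. Above against at or below the median *Brinp3* count of the cluster, *Gabra3* was at 1.15 times (0.924 to 1.43) in cluster 0 and 1.26 times (0.472 to 3.38) in cluster 4. The interval lay above 1 in cluster 5, at 2.07 times (1.01 to 4.38), and in cluster 6, at 11.1 times (2.71 to 98.3), the latter from 20 UMIs against 2. Cluster 5 had a median of 30452 UMIs per nucleus, against 13771 in all kept nuclei. Only 340 of its 826 nuclei were left without the top 8% by Scrublet score. Whether doublets give the ratio in cluster 5 was not tested. When nuclei were compared within clusters, the ratio of *Gabra3* in nuclei with at least 5 *Brinp3* UMIs to nuclei with none was 1.36 (0.915 to 2.01), in place of 4.22.

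*Gabrb2* followed *Brinp3* with a ratio of the same size as *Gabra3*, and the other 5 genes had lower ones. For *Gabrb2* the same ratio over all nuclei was 4.91 (3.69 to 6.57), for *Gabrb1* 2.41 (1.59 to 3.64), for *Gabra2* 1.59 (1.24 to 2.03), for *Gabra4* 1.53 (1.05 to 2.21), for *Gabrg3* 1.51 (1.36 to 1.68) and for *Gabrg1* 1.08 (0.955 to 1.21). The intervals of *Gabrb2* and *Gabra3* overlapped. Within clusters *Gabrb2* was at 1.17 (0.793 to 1.73), and *Gabrg3* went below 1, to 0.749 (0.618 to 0.906). In cluster 0, *Gabrg3* had 32.5 UMIs per 100 nuclei above the median *Brinp3* count and 57.2 at or below it.

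**Figure D4:**
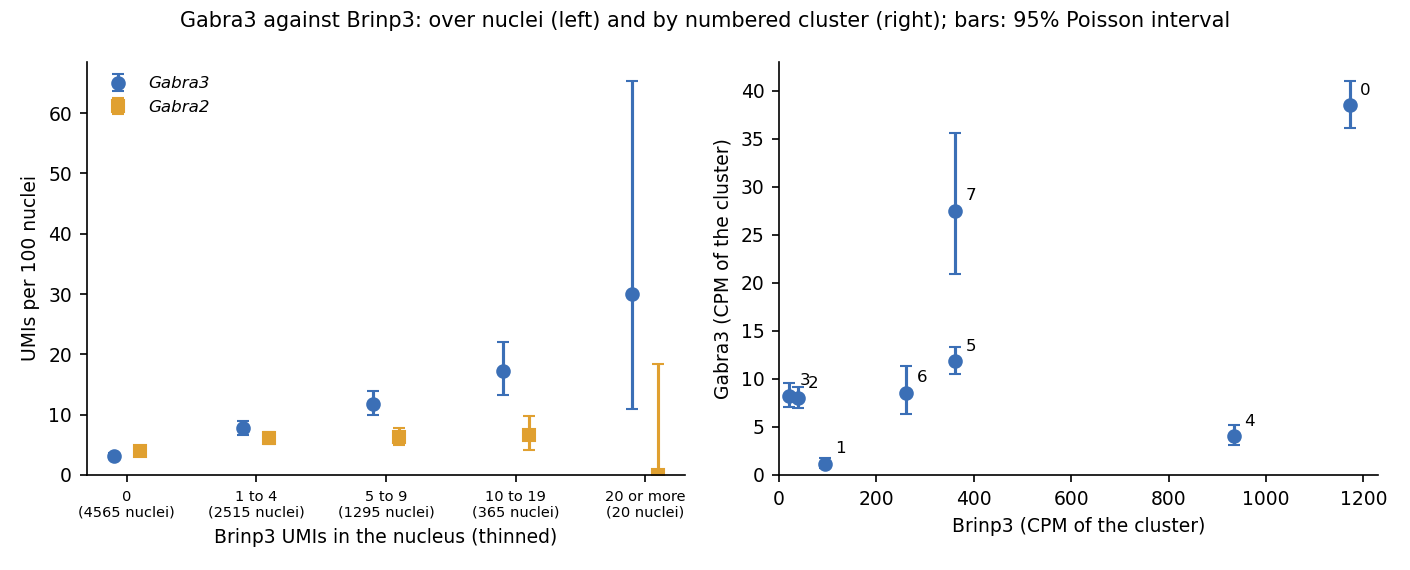
Left, UMIs of *Gabra3* and *Gabra2* per 100 nuclei (thinned) by the number of *Brinp3* UMIs in the nucleus; right, *Gabra3* against *Brinp3* in CPM for clusters 0 to 7, with bars for the 95% Poisson interval. Clusters 0 and 4 both have high *Brinp3*, 1172 and 934 CPM, but *Gabra3* is at 38.5 and 4.02 CPM.

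The pair of overlapping genes on chromosome 5 also stood out by phase of the cell cycle. Each thinned nucleus was scored with the cell cycle gene sets supplied in Seurat, which gave 2899 G1, 2549 S and 3312 G2/M nuclei. *Gabra4* was at 3.02 CPM (2.51 to 3.59) in G1, 7.37 CPM (6.52 to 8.29) in S and 3.45 CPM (3.00 to 3.94) in G2/M nuclei. *Gabrb1* was at 1.72 CPM (1.35 to 2.17), 4.70 CPM (4.03 to 5.46) and 2.29 CPM (1.93 to 2.70) in the same order. In both genes the interval in S lay above the intervals in G1 and G2/M.

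In UMIs per thinned nucleus, S nuclei had 2.46 times (1.86 to 3.26) the *Gabra4* level of the G1 and G2/M nuclei together and 2.21 times (1.57 to 3.11) the *Gabrb1* level. A ratio of at least 2 was reached by 0.639% of the 11424 genes with at least 500 UMIs, whose median was 0.991, and by 1 of the 6 subunit genes counted among them, *Gabra4*, above which 25 genes stood. Within clusters the ratios were 2.31 (1.76 to 3.03) for *Gabra4* and 2.01 (1.45 to 2.79) for *Gabrb1*. In cluster 1, *Gabra4* had 7.57 UMIs per 100 S nuclei and 2.88 per 100 other nuclei, and in cluster 4 it had 8.71 and 4.27. In cluster 0, which had the most S nuclei (675), it had 2.22 and 1.46, a ratio of 1.52 (0.694 to 3.34). *Gabrb1* had 4.91 and 1.48 in cluster 1, and 5.97 and 3.01 in cluster 4, but 1.78 and 1.65 in cluster 0.

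The ratios of the other 5 genes were at most 1.34. *Gabra2*, in the same block, was at 1.20 (0.978 to 1.47), *Gabrg1* at 0.922 (0.833 to 1.02) and *Gabrg3* at 1.05 (0.959 to 1.15). *Gabra3* was at 1.34 (1.12 to 1.59) over all nuclei and at 1.08 (0.907 to 1.29) within clusters, and 39.6% of the nuclei of cluster 0 were in S. *Gabrb2* was lower in S, at 0.761 (0.598 to 0.962), and at 0.674 (0.533 to 0.853) within clusters. With the product taken within phases of clusters, *Gabra4* and *Gabrb1* were still found together in 2.50 times (1.33 to 4.28) as many nuclei as the product gives. The counts do not show how reads in the 267 shared bases were assigned, and this was not tested. Phase calls rest on transcripts alone and are not a measure of DNA synthesis.

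**Figure D5:**
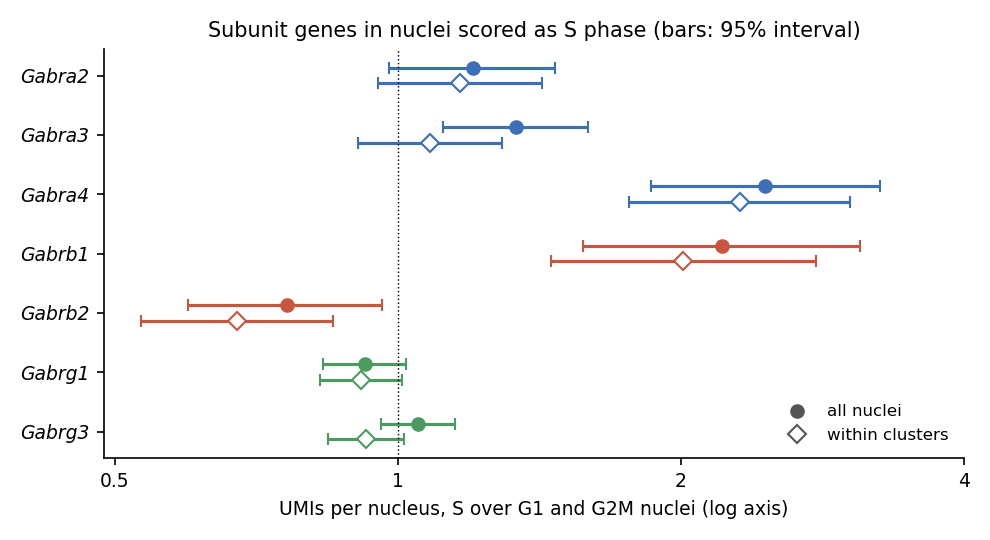
UMIs per thinned nucleus in S nuclei over G1 and G2M nuclei (log axis) for the 7 subunit genes, over all nuclei (filled) and within clusters (open), with bars for the 95% interval. *Gabra4* and *Gabrb1* are at 2.46 and 2.21, and *Gabrb2* is at 0.761.

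Around the receptor, the genes that make and store GABA had few UMIs in the library as a whole, and *Gad1* stood apart in the small cluster 7. *Gad1* and *Gad2*, which make GABA, had 327 and 13 UMIs (2.32 and 0.0921 CPM), and *Slc32a1*, which loads it into vesicles, had 5. *Gad1* was at 26.1 CPM (19.7 to 34.0) in cluster 7, from 55 UMIs, and at 1.10 to 3.97 CPM in the other 7 clusters. Of the transporters of GABA reported, *Slc6a11* had 2.56 CPM, with 10.3 CPM in cluster 1 and 0.190 in cluster 2, and *Slc6a12* and *Slc6a13* had 0 and 1 UMI. *Gphn*, the scaffold gephyrin, was at 354 CPM, from 281 to 509 CPM between the larger clusters. *Dbi*, whose product binds the benzodiazepine site, was at 1628 CPM, and *Slc12a5*, the chloride exporter of mature neurons, at 1.82 CPM.

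Of 24 genes reported from the GABA pathway list, 16 had at least 500 UMIs, and 6 of these differed at least 2-fold between the larger clusters (37.5%, against 36.0% of all genes). Their median ratio was 1.73, close to that of all genes, and far below that of the subunits. The 6 were *Lhfpl3*, *Shisa7*, *Gabbr2*, *Nlgn2*, *Gabbr1* and *Dbi*. *Shisa7*, an auxiliary protein of the receptor, was at 33.9 CPM in cluster 4 and 1.85 CPM in cluster 1, a ratio of 18.3 (13.3 to 25.8), and *Lhfpl3* was at 3159 CPM in cluster 0 and 123 in cluster 1. Among the larger clusters *Gabbr2*, a subunit of the metabotropic GABA-B receptor, was lowest in cluster 2 (2.24 CPM) and highest in cluster 4 (10.1 CPM). Its level was higher still in the small cluster 7, at 18.99 CPM (13.6 to 25.9), from 40 UMIs.

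The genes most alike to each subunit over thinned nuclei were named by Pearson correlation of log counts among 10073 genes with at least 1000 UMIs. All values were low and no pattern of function is drawn from them. *Gabra3* was most like *Brinp3* (0.154), and *Pcdh15* (0.132) and *Lhfpl3* (0.131) were also among its first 5. *Gabrb2* was most like *Tafa2* (0.170), *Tafa1* (0.138) and *Brinp3* (0.137), which are high in cluster 4. *Gabra2*, *Gabra4* and *Gabrg1* shared *Igfbp2* and *Lrrc7* among their first 5, at 0.0806 to 0.138, and *Lrrc7* was also among those of *Gabrb1*. *Xist* was first for *Gabrg1* (0.136) and second for *Gabra2* (0.134), the transcript found without Y-linked UMIs in 90.9% of nuclei of cluster 1. *Gabrg3* was most like *Erbb4* (0.199), with *Lsamp* (0.193), *Negr1* (0.191) and *Kcnd2* (0.188).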

How the data were processed

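The cultured BB-p53n OPCs gave 1 library of single-nucleus RNA-seq. Per the study, Cell Ranger 8.0.1 was run with mm39 and 15000 expected cells. The authors deposited its UMI counts unnormalized, and the cutoffs of 2000 and 8000 detected genes were applied here. From the deposited counts, CPM were taken over summed nuclei, with 95% exact Poisson intervals, exact conditional intervals for ratios of counts, and exact binomial (Clopper-Pearson) intervals for shares. Ratios within clusters are Mantel-Haenszel rate ratios with an approximate interval. With 1 library no test between groups was run. Total UMIs per nucleus had a median of 13771, so most subunit genes gave 0 or 1 UMI per nucleus.

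Clustering used the settings of the study, but on all 8917 nuclei within the gene cutoffs, in Seurat 5.3.0 (R 4.3.3), on log values (scale factor 1000) of 3000 variable genes with total counts regressed out, 20 components, 200 neighbors and resolution 1, but with GABA-A subunit genes and *Brinp3* taken out of the variable genes. Shares, pairs and phases (43 S and 54 G2/M genes) used nuclei thinned to 5000 UMIs. Scrublet (scanpy 1.11.5) called 0 doublets, so its calls had not worked and none were removed. Intervals and thinning were tested on simulated data.

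The members, the GABA pathway list, the markers and the comparisons were chosen with earlier results of these data known. The named genes are the 7 subunits, the rest of the family, *Brinp3*, the pathway list and the 5 genes most like each subunit. The brains with tumors were not analysed here. Some subunit genes and some genes of these lists are not reported here. Gene positions are of GENCODE vM39 on GRCm39, the same build as mm39, and 33185 of 33696 genes matched it. Promoter windows are from the RefSeq table of GRCm38.p6, and all 7 genes matched by symbol. The study kept fewer nuclei than these cutoffs leave. Adding a limit of 5% mitochondrial UMIs leaves 1954, the number of nuclei listed for the study, so this alternative is the set nearest to its own, and the clusters here are not those of the study. Alternatives were other sets of nuclei, thinning depths and clustering settings.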

Additional observations from a re-analysis of the deposited data

How the results depend on the processing

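With 1 library there is no replicate to leave out, and the values below are compared with their own counting interval. For the median pair ratio this is the interval of the single pair in the middle, *Gabra3* with *Gabrg3*, and not an interval of the median. No paired analysis was possible because the results come from no test and from 1 sample.

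The summed level of the 7 genes, 138 CPM, was 136 CPM in nuclei with 3000 to 7000 genes and 175 CPM in the 1954 nuclei whose mitochondrial share was 5% or less, the set nearest to the one the study kept. In these *Gabrb2* was at 14.8 CPM in place of 8.11, the share with UMIs of all 3 classes was 0.524% and the *Gabra3* ratio by *Brinp3* was 2.83. The ratio of the highest to the lowest *Gabra3* cluster was 9.23 in them, from clusters 0 and 4 alone, with 663 and 542 nuclei. The other clusters, among them cluster 1 with 189 nuclei, then had fewer than 500 and were not counted. That cluster ratio was 52.4 with 3000 to 7000 genes, 115 after the top 8% by Scrublet score were removed and 139 with 20 neighbors. Thinning to 3000 UMIs gave 0.0673% of nuclei with all 3 classes and a median pair ratio of 1.02, and no thinning gave 3.42%. Comparing nuclei within clusters, chosen after seeing the data, lowered the *Gabra3* ratio by *Brinp3* to 1.36. None of these values reversed, and apart from the clusters not counted the cause was not tested. The other 22 values of the main results stayed within their intervals, and 19 of 28 values of single genes did. All deposited barcodes gave no cluster ratio, because barcodes outside the cutoffs have no cluster.

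Depth limits the values most for *Gabrb1* and *Gabra4*, whose pair rests on 13 nuclei, and for clusters 6 and 7. Doublets, free RNA and the mixing of pups in 1 culture could not be removed.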

Other observations

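Barcodes outside the cutoffs were used in no comparison. The 918 barcodes with fewer than 2000 genes, in which mitochondrial genes took 19.5% of UMIs, had 131 *Gabrg3* UMIs, or 74.5 CPM (95% exact Poisson interval 62.3 to 88.5), and 72 *Gabrg1* UMIs, or 41.0 CPM (32.1 to 51.6). *Gabra3* had 13.1 CPM (8.30 to 19.6) in them. In the 212 barcodes with more than 8000 genes, *Gabrg3* was at 60.2, *Gabrg1* at 43.7 and *Gabra3* at 10.7 CPM.

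With nuclei split by total UMIs into 5 sets of 1783 or 1784, *Gabrg3* was at 55.2, 39.1, 40.2, 56.5 and 70.2 CPM from the shallowest to the deepest nuclei, and *Gabrb2* at 15.9, 9.78, 6.18, 7.37 and 6.93 CPM. *Gabra3* stayed between 12.2 and 13.7 CPM. Among nuclei whose mitochondrial share was 5% or less (1954 nuclei), *Gabrb2* was at 14.8 CPM (13.5 to 16.3) against 6.29 CPM (5.84 to 6.78) in the other nuclei, *Gabrg3* at 79.2 against 50.01 and *Brinp3* at 734 against 324 CPM. *Gabrg1* was at 42.2 and 45.0 CPM. How far clusters account for these differences was not tested.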
